A study of Mus musculus with 6 samples.

Results

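The endoplasmic reticulum chaperones and disulfide isomerases described here are 8 genes whose products fold secreted and membrane proteins: Hspa5, Hsp90b1, Calr, Canx, P4hb, Pdia3, Pdia4 and Pdia6. They were chosen by Ensembl gene ID, given with gene positions in GRCm38.p6 beside each result, and all 8 were found once among the 22322 genes of the deposited table. Ribosome profiling, which sequences the mRNA fragments covered by ribosomes, was set between 3 libraries of activated and 3 libraries of resting CD4+ T cells from a study of mRNA decay that does or does not depend on translation. Both groups came from 6-week-old female C57BL/6J mice, whose CD4+ cells were isolated from spleen and lymph nodes by negative selection. Activated cells had been given magnetic beads coated with antibodies against CD3 and CD28, and resting cells carry the status Resting. Every library is labelled 0 h and untreated, so no transcription or translation inhibitor had been added as a treatment. The sources used here state neither the length of activation nor whether mice were pooled.

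Proteins that fold in the endoplasmic reticulum are bound by Hspa5 (BiP), an Hsp70-type chaperone that also holds the stress sensors of this compartment inactive. Hsp90b1 (Grp94) is an Hsp90-type chaperone needed for many integrins and Toll-like receptors. Glycoproteins pass through the lectin chaperones Calr (calreticulin) and Canx (calnexin), which recruit the disulfide isomerase Pdia3 (ERp57). P4hb (protein disulfide isomerase), Pdia4 (ERp72) and Pdia6 (P5) form and rearrange further disulfide bonds. When unfolded proteins accumulate, the factors ATF6 and XBP1 raise transcription of many of these genes through the endoplasmic reticulum stress response element. Lymphocytes that begin to secrete protein are known to enlarge this machinery.

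The promoters are shown because most of the members hold this element. Many of these genes are known to respond through it, as said above, so the matches are not an independent finding. The motif searched was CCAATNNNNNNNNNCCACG on either strand, in RefSeq windows (build GRCm38.p6) from 250 bases before to 50 bases after each annotated gene start. All 8 members had a window. At least 1 match lay in the windows of 5 members, Hspa5, Hsp90b1, Calr, Canx and Pdia6, and Hsp90b1 held 2. Over all 32851 windows of this length, 39 (0.119%) held a match, whereas the CCAAT box alone, on either strand, was in 37.4%. P4hb, Pdia3 and Pdia4 had no match to these letters. The 250 bases before the start of Hspa5 (chr2:34771840-34772089, plus strand) follow, with the CCAAT part and the CCACG part of the matched element in capitals.
Hspa5: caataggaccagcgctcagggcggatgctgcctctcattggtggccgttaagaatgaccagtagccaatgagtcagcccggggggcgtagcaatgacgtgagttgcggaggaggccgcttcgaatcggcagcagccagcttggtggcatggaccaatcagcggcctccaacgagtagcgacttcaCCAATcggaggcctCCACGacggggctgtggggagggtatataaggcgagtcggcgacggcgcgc
The same element in the other members is shown with 5 bases on each side, read along the strand of its gene, with the same parts in capitals (CGTGG and ATTGG where the match is on the opposite strand). In Hsp90b1 the first match starts 212 bases before the gene start (chr10:86705633-86705661) and the second 107 bases before it, on the opposite strand (chr10:86705528-86705556). The Calr match is also on the opposite strand, 162 bases before the start (chr8:84847070-84847098). Those of Canx (chr11:50325795-50325823) and Pdia6 (chr12:17266486-17266514) lie on the strand of the gene, 145 and 98 bases before the start. Hsp90b1, Calr and Canx are on the minus strand and Pdia6 is on the plus strand.
Hsp90b1 first: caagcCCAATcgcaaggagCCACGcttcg
Hsp90b1 second: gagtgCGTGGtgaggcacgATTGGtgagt
Calr: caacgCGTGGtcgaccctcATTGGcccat
Canx: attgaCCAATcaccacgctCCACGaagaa
Pdia6: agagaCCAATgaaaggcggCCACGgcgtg
A match describes the letters of the window and was not a measurement of binding.

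**Figure D1:**
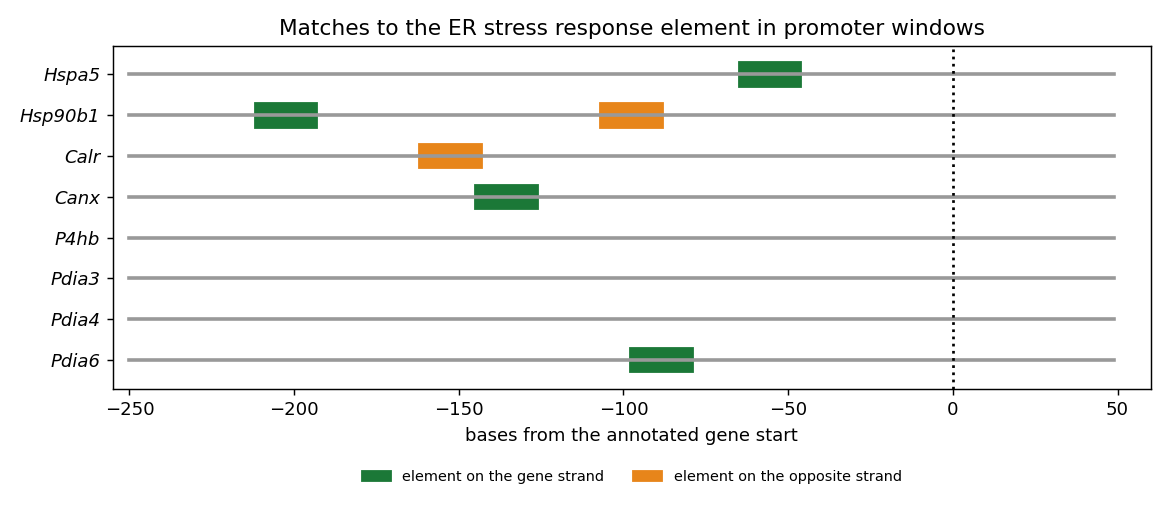
Map of the promoter windows of the 8 genes, with the distance in bases from the annotated gene start on the horizontal axis. Boxes mark matches to the element on the strand of the gene (green) or on the opposite strand (orange), of which Hsp90b1 has 2, Hspa5, Calr, Canx and Pdia6 have 1, and P4hb, Pdia3 and Pdia4 have none.

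Coding sequence (CDS) counts summed to between 511483 and 1074656 in activated libraries and between 437200 and 594508 in resting libraries. Levels are counts-per-million (CPM) values on library sizes scaled by trimmed mean of M values (TMM), and they were tested with the edgeR quasi-likelihood test at an adjusted p threshold of 0.05 over the 6775 genes with enough counts, all 8 members among them. Over all genes tested, 45.7% passed the threshold (24.1% higher and 21.6% lower in activated cells), and with library totals in place of TMM factors 1102 genes were higher and 2572 lower, against 1633 and 1464. That rescaling moved the median log2 change of all genes from -0.04 to -0.38, and upper quartile factors moved it to -0.18. Of the 8 members, 1 rose, 3 fell and 4 did not pass. The share that passed in either direction is close to the 45.7% over all genes. By direction more members fell than rose, whereas with TMM factors more of all genes rose than fell. That split of a few genes was not tested. The members' median log2 change was 0.05 against -0.04 over all genes. The deposited IDs carry no symbols, and the reference used here paired 0 of them, so T cell markers, markers of other cells and further genes of this pathway were not analysed here. Fewer cells of a kind and less RNA per cell cannot be told apart in these bulk samples.

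Hspa5 was the member that rose. Hspa5 (ENSMUSG00000026864, chr2:34772090-34776529) had a CDS level of 3018, 3272 and 3249 CPM in activated replicates 2, 3 and 4, against 772, 976 and 1125 CPM in resting replicates 2, 3 and 4. Every activated library lay far above every resting library, and the activated libraries were close to each other. The level was 3.32-fold higher in activated cells (95% interval 2.61 to 4.20, log2 change 1.73, SE 0.16, adjusted p = 3.56e-07). Of the 6775 genes, 398 (5.87%) had a higher log2 change, and 14.7% rose by at least 2-fold. The log2 change was 1.39 with library totals alone, and it passed the threshold under all 19 alternatives run. The counts behind it were 6983 in activated and 1701 in resting cells.

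The Hsp90-type chaperone of the set, Hsp90b1, did not rise with Hspa5. Hsp90b1 (ENSMUSG00000020048, chr10:86690841-86705444) had 448, 676 and 682 CPM in activated replicates 2, 3 and 4, against 704, 886 and 868 CPM in resting replicates 2, 3 and 4. The activated libraries were all below the resting ones, although activated replicates 3 and 4 came near resting replicate 2. It fell by 0.44 on the log2 scale (SE 0.17, adjusted p = 0.0467). This call is marginal: it was lost under 11 of 19 alternatives, DESeq2 among them (adjusted p = 0.0880). The 11 include a test against a 2-fold null and an adjusted p threshold of 0.01, which ask for more. The 8 that kept it include upper quartile factors (log2 change -0.57, edgeR adjusted p = 0.0121) and library totals (-0.77, edgeR adjusted p = 0.00144). Both of those scalings moved the median of all genes down. Limma voom on TMM factors, also among the 8, gave a log2 change of -0.45 (limma adjusted p = 0.0413). Leaving out activated replicate 2 gave a log2 change of -0.25 (edgeR adjusted p = 0.191). Without activated replicate 3, resting replicate 3 or resting replicate 4 the edgeR adjusted p was 0.0549, 0.161 and 0.119.

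**Figure D2:**
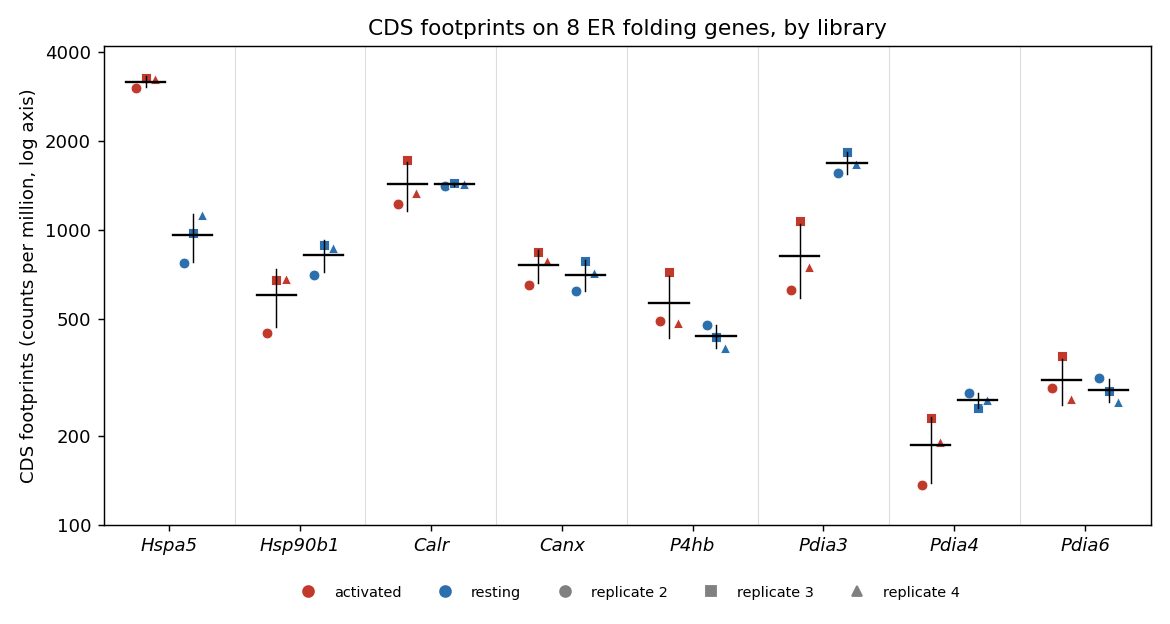
CDS footprints of the 8 genes in CPM on a log axis, with activated libraries (red) left of resting libraries (blue), symbols for replicates, a line at the mean and a bar of 1 SD (n = 3). Levels are not scaled by gene length, so heights compare groups within a gene and not genes with each other. Hspa5 is far higher and Pdia3 far lower in activated cells.

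The lectin chaperones showed no change that passed the threshold. Calr (ENSMUSG00000003814, chr8:84842088-84846931) had 1220.2, 1728 and 1329.5 CPM in activated replicates 2, 3 and 4, against 1402, 1439 and 1433 CPM in resting replicates 2, 3 and 4. The resting libraries were almost equal, while activated libraries lay on both sides of them. The log2 change was 0.00 (95% interval -0.32 to 0.33, adjusted p = 0.987). Canx (ENSMUSG00000020368, chr11:50293957-50325673), the membrane-bound counterpart of calreticulin, had 648, 838 and 783 CPM in activated replicates 2, 3 and 4, and 618, 783 and 713 CPM in resting replicates 2, 3 and 4. The groups overlapped, and the log2 change was 0.10 (95% interval -0.22 to 0.42, adjusted p = 0.599). The sign of both changes depended on the scaling: with upper quartile factors and with library totals it was -0.13 and -0.33 for Calr, and -0.033 and -0.23 for Canx.

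Among the disulfide isomerases, Pdia3 fell. Pdia3 (ENSMUSG00000027248, chr2:121413902-121438687) had 627, 1069.8 and 749 CPM in activated replicates 2, 3 and 4, against 1552, 1833 and 1677 CPM in resting replicates 2, 3 and 4. The groups were well separated, with the highest activated library, replicate 3, still below the lowest resting one. Pdia3 was 2.06-fold lower in activated cells (95% interval 1.58 to 2.68, log2 change -1.04, SE 0.18, adjusted p = 1.80e-04). Of all genes tested, 90.0% had a higher log2 change, and 10.8% fell by at least 2-fold. The fall passed the threshold with each library left out (log2 change -1.26 to -0.87) and under each scaling, but a test against a 2-fold null did not call it (adjusted p = 0.787).

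Pdia4 (ENSMUSG00000025823, chr6:47796141-47813512), an isomerase found in complexes with Hspa5, had 136, 230.0 and 191 CPM in activated replicates 2, 3 and 4, against 279.7, 248 and 264 CPM in resting replicates 2, 3 and 4. All activated libraries lay below all resting libraries, with activated replicate 2 the lowest. It fell by 0.49 on the log2 scale (SE 0.18, adjusted p = 0.0369), on 422 counts in activated and 458 in resting cells. The call was lost under 10 of 19 alternatives, with an adjusted p of 0.114 in DESeq2. The 10 include the test against a 2-fold null and the adjusted p threshold of 0.01, which ask for more. The 9 that kept it include upper quartile factors (log2 change -0.62, edgeR adjusted p = 0.00999) and library totals (-0.82, edgeR adjusted p = 0.00129), which moved the median of all genes down. Limma voom on TMM factors, also among the 9, gave a log2 change of -0.51 (limma adjusted p = 0.0314). Leaving out activated replicate 2 gave a log2 change of -0.30 (edgeR adjusted p = 0.130), and leaving out activated replicate 4 or resting replicate 2, 3 or 4 gave an edgeR adjusted p of 0.0719, 0.108, 0.0665 and 0.0763.

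P4hb (ENSMUSG00000025130, chr11:120560298-120573253), the archetype of the isomerase family, had 491, 718 and 481 CPM in activated replicates 2, 3 and 4, against 475, 431 and 398 CPM in resting replicates 2, 3 and 4. The groups did not overlap, but activated replicates 2 and 4 were only just above resting replicate 2. The log2 change of 0.38 (95% interval 0.02 to 0.74) missed the threshold (adjusted p = 0.0798). The size depended on single libraries and on the scaling: the log2 change was 0.19 without activated replicate 3 (edgeR adjusted p = 0.378), 0.24 with upper quartile factors (edgeR adjusted p = 0.258) and 0.040 with library totals (edgeR adjusted p = 0.852). It passed without activated replicate 2 (log2 change 0.49, edgeR adjusted p = 0.0262), without activated replicate 4 (0.52, edgeR adjusted p = 0.0238), and in counts over all exons (edgeR adjusted p = 0.0481). Pdia6 (ENSMUSG00000020571, chr12:17266589-17284785), another isomerase that binds Hspa5, had 291, 372 and 267 CPM in activated replicates 2, 3 and 4, and 313, 284 and 261 CPM in resting replicates 2, 3 and 4. Its groups overlapped, and the log2 change was 0.12 (95% interval -0.23 to 0.47, adjusted p = 0.570), turning to -0.017 with upper quartile factors and -0.22 with library totals. In all, the CPM of the groups did not overlap for 5 of the 8 members, against 54.8% of all genes tested.

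**Figure D3:**
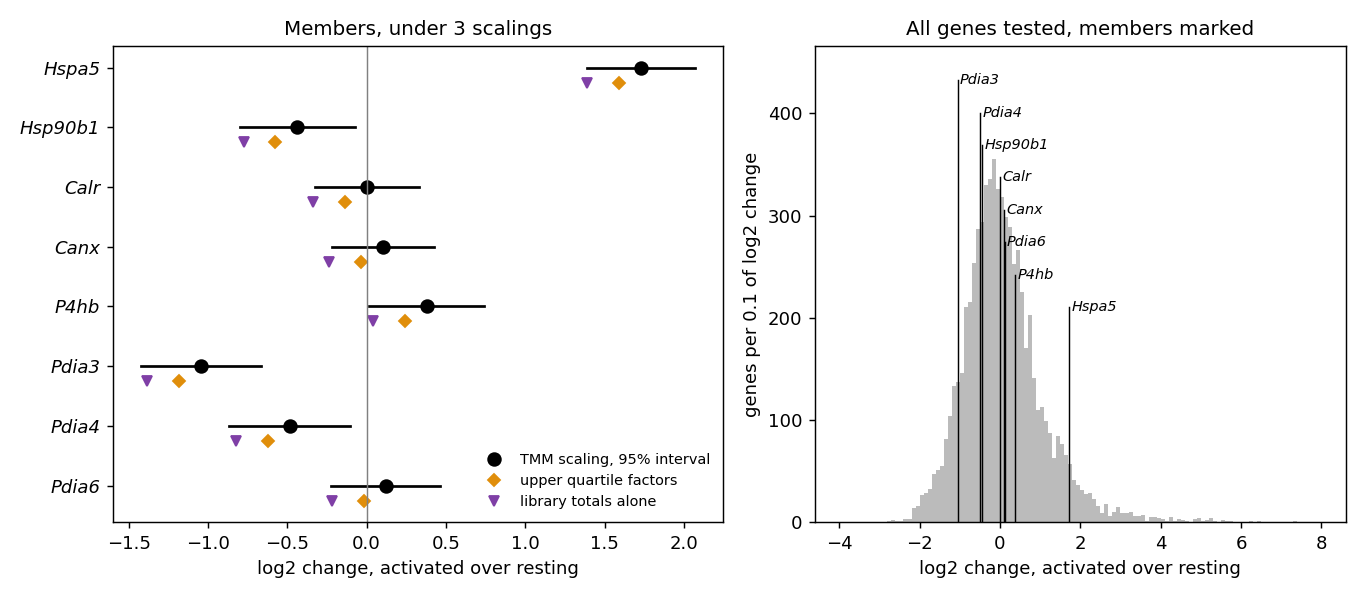
Left, log2 change of each gene in activated over resting cells with its 95% interval under TMM scaling (black), and the change under upper quartile factors (orange) and library totals alone (purple). Right, the log2 changes of the 6775 genes tested in bins of 0.1, with a line for each of the 8 genes. Hspa5 stands to the right and Pdia3 to the left of a group near 0, and both keep their side of 0 under the 3 scalings.

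The changes can be set beside the promoter element, as a description with no test. Footprint counts do not tell the amount of an mRNA from its translation, and no mRNA levels were used here. The 5 genes with a match had log2 changes of 1.73 (Hspa5), -0.44 (Hsp90b1), 0.00 (Calr), 0.10 (Canx) and 0.12 (Pdia6). The 3 genes without one had 0.38 (P4hb), -1.04 (Pdia3) and -0.49 (Pdia4).

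Ratios between members within a library do not depend on the scaling between libraries. Per 100 CDS counts of the other 7 members, Hspa5 had 78.2, 58.1 and 72.5 counts in activated replicates 2, 3 and 4, against 14.4, 16.5 and 20.0 in resting replicates 2, 3 and 4. The mean was 69.6 ± 10.3 in activated and 17.0 ± 2.83 in resting cells (SD, n = 3), 4.09 times as high. The ratio of Hspa5 to each of the other 7 members separated the groups, from a log2 difference of 1.40 against P4hb to 2.83 against Pdia3. The ratio of Pdia3 to each of the 7 others also separated the groups, in part by smaller amounts: the log2 ratio of Pdia3 to Pdia4 differed by -0.54, that of Hsp90b1 to Pdia3 by 0.62 and that of P4hb to Pdia3 by 1.43. Per 100 counts of its lectin partners Calr and Canx it had 33.6, 41.7 and 35.5 counts in activated replicates 2, 3 and 4, against 76.8, 82.5 and 78.2 in resting replicates 2, 3 and 4. The ratio of Calr to Canx overlapped between the groups (log2 difference -0.11), as did that of Canx to Pdia6 (-0.0049). Over all 28 pairs of members 21 separated the groups, and over all pairs of tested genes with counts in every library 55.2% did. All 7 pairs with Hspa5 and all 7 with Pdia3 were among the 21, and of the other 15 pairs 8 separated the groups. With 3 libraries against 3, the exact permutation p of a single ratio cannot be below 0.1.

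The share of the whole set in CDS counts overlapped between the groups, while that of Hspa5 did not. The 8 genes held 0.592%, 0.778% and 0.676% in activated replicates 2, 3 and 4, and 0.665%, 0.750% and 0.738% in resting replicates 2, 3 and 4. Wilson intervals at 95%, which cover counting error only, reached at most 0.0241 percentage points to either side. Hspa5 alone held 0.260%, 0.286% and 0.284% in activated replicates 2, 3 and 4, against 0.0839%, 0.106% and 0.123% in resting replicates 2, 3 and 4. The other 7 genes together held 0.405 ± 0.081% in activated and 0.613 ± 0.031% in resting cells (SD, n = 3). These shares are of library totals without TMM factors, a base on which most genes shift down in activated cells.

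**Figure D4:**
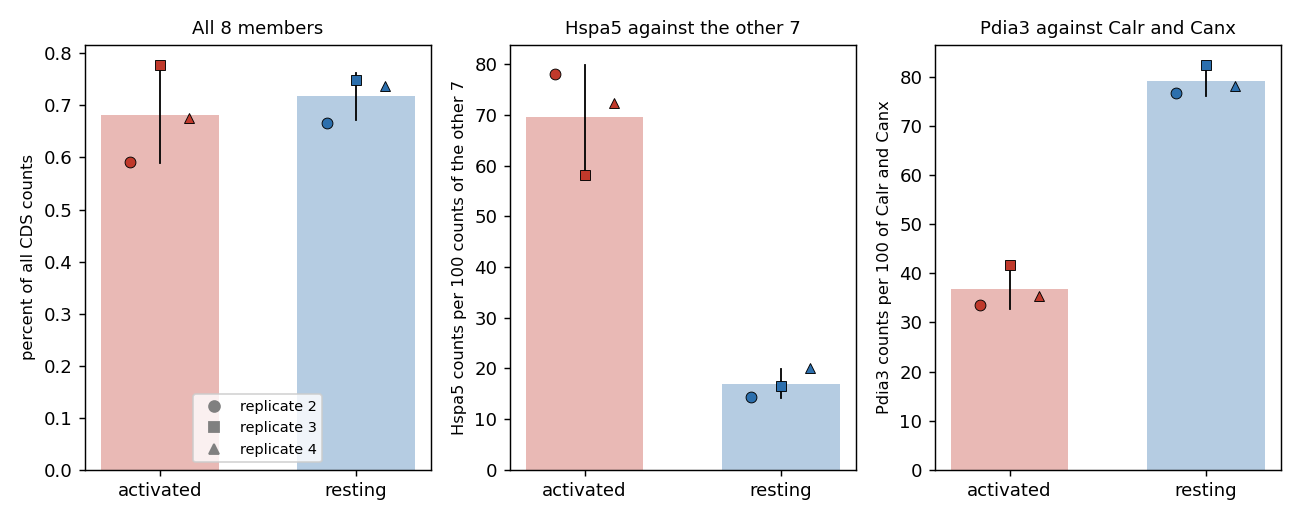
Left, share of the 8 genes in all CDS counts in percent. Middle and right, Hspa5 counts per 100 counts of the other 7 genes and Pdia3 counts per 100 counts of Calr and Canx. Bars are means of 3 libraries, lines are 1 SD, symbols are replicates, and activated cells (red) stand left of resting cells (blue). The set's share overlaps between the groups while both ratios separate them.

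The members largely shared the order of the activated libraries. Activated replicate 3 was the highest activated library for 7 of the 8 genes, and activated replicate 2 the lowest for 6. The share of all genes with this order was not counted, so the order is not shown to be particular to the members. The coefficient of variation was between 4.43% (Hspa5) and 28.0% (Pdia3) in activated cells, and between 1.36% (Calr) and 18.5% (Hspa5) in resting cells. Hspa5 was thus the steadiest member in activated and the most variable one in resting cells. Of 6767 other genes, ENSMUSG00000018770.8 and ENSMUSG00000026174.9 were most like the mean log2 CPM of the members over the 6 libraries (Pearson r of 0.98 and 0.97, a description that follows the order of these libraries).

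Footprints in the 5' UTR, the leader ahead of the coding sequence, were counted separately. Hspa5 had 205, 438 and 551 leader counts in activated replicates 2, 3 and 4, against 69, 81 and 73 in resting replicates 2, 3 and 4. Per 100 CDS counts this was 15.4, 16.8 and 18.1 in activated and 18.8, 13.5 and 9.97 in resting replicates 2, 3 and 4. The resting libraries spanned the range of the activated ones. The log2 change of the leader relative to the CDS was 0.01 (95% interval -0.54 to 0.57, adjusted p = 0.987). Over all 4305 genes tested, the median was 20.5 leader counts per 100 CDS counts.

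All 7 members with leader counts had a higher mean ratio in activated than in resting libraries, Hspa5 among them (16.8 against 14.1). The share of all genes with a higher mean was not counted. Canx had 10.9, 8.25 and 7.34 leader counts per 100 CDS counts in activated replicates 2, 3 and 4, against 3.74, 3.73 and 5.39 in resting replicates 2, 3 and 4. P4hb had 11.1, 7.71 and 9.96 in activated replicates 2, 3 and 4, against 3.54, 3.76 and 6.56 in resting replicates 2, 3 and 4. Calr had 2.05, 1.38 and 0.721 in activated replicates 2, 3 and 4, against 0.300, 0.338 and 0.322 in resting replicates 2, 3 and 4, on only 39 leader counts in activated and 8 in resting cells. In each of these 3 genes every activated library was above every resting library, as also in Pdia3 and Pdia4. That makes 5 of the 7 members with leader counts, against 15.5% of the genes tested. These ratios are not scaled between regions, and over all genes they leaned up in activated cells. Of the 4305 genes tested, 668 lay wholly higher and 144 wholly lower. The median log2 change of the ratio was 0.34 with 1 scaling for both regions and 0.08 with a scaling per region. The share among genes with as many counts as the members was not counted.

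None of the 7 members passed the test of leader against CDS counts, in which 0.256% of genes passed. At an unadjusted edgeR p under 0.05 there were 3 of 7 (Calr, Canx and P4hb), all higher. Of all genes, 10.4% passed in either direction (238 higher and 211 lower of 4305). The log2 change of the ratio was 1.69 for Calr (SE 0.51, adjusted p = 0.189), 0.71 for Canx (SE 0.31, adjusted p = 0.420) and 0.74 for P4hb (SE 0.36, adjusted p = 0.478). Hsp90b1 and Pdia3 had 0.65 and 0.66 (adjusted p = 0.558 and 0.525), and Pdia4, on 12 leader counts in activated and 4 in resting cells, had 1.47 (adjusted p = 0.534). Leaving out resting replicate 4 moved Pdia4 to 2.77 and Hsp90b1 to 0.36, and leaving out resting replicate 2 moved Pdia4 to 0.99. Over all genes, activated replicate 2 had 20.0 leader counts per 100 CDS counts, against 15.1 and 14.3 in activated replicates 3 and 4 and between 14.0 and 15.5 in resting libraries. Its part in the members' ratios was measured by leaving it out: the log2 change was then 1.53 for Calr, 0.67 for Canx and 0.74 for P4hb. It was 0.48 for Pdia3, 0.56 for Hsp90b1, 1.47 for Pdia4 and 0.20 for Hspa5.

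Pdia6 had 0 leader counts in each library, which allows up to 0.257 per 100 CDS counts (3 counts over the 6 libraries, counting error only). That limit holds only if the annotation used gives Pdia6 a leader that could be counted, which the sources used here do not state. Outside coding sequence and leaders, the members held almost no footprints. Their 3' UTR counts were between 0.0730% and 0.638% of their exon counts in activated libraries and between 0.106% and 0.318% in resting libraries, against 1.12% to 3.25% over all genes in activated and 1.74% to 3.46% in resting libraries. Hspa5 had 3 counts in its 3' UTR and 0 in its introns over the 6 libraries.

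**Figure D5:**
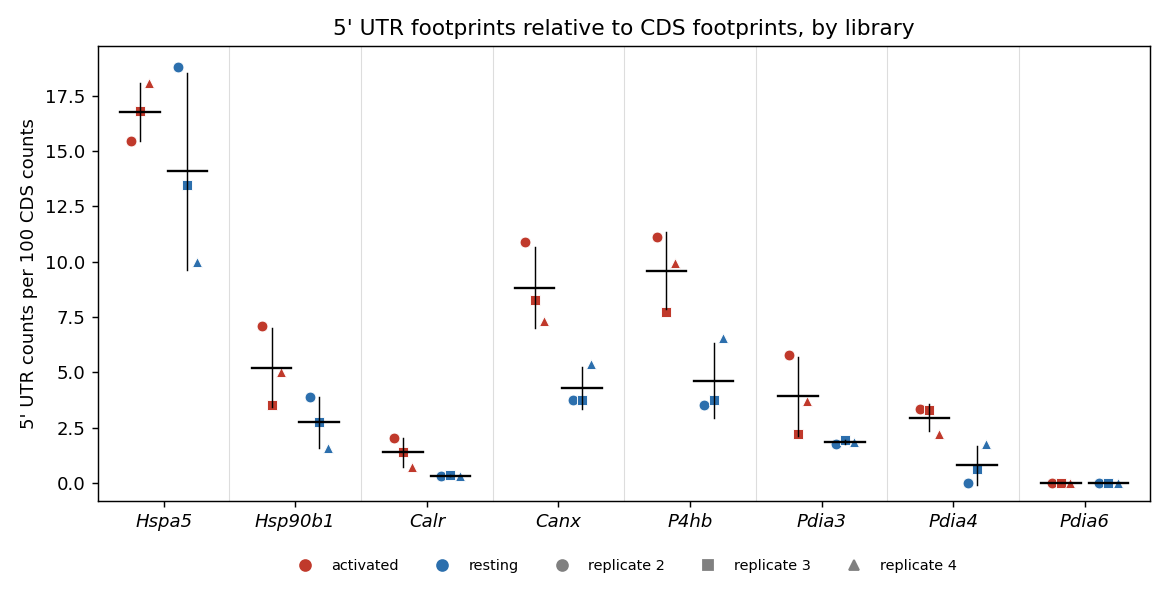
5' UTR counts per 100 CDS counts of the same gene, with activated libraries (red) left of resting libraries (blue), symbols for replicates, a line at the mean and a bar of 1 SD (n = 3). Hspa5 overlaps between the groups at 9.97 to 18.8, Canx and P4hb are higher in each activated library, and Pdia6 is at 0.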

How the data were processed

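The authors deposited 1 table of raw counts per gene and library, in 6 columns per library (CDS in 2 counting modes, 5' UTR, 3' UTR, exons and introns), per the file headers. Per the submitters' processing notes, the tools were TopHat2 2.0.13, Bowtie 1.1.1.0 and HTSeq, with build mm10 and no roles given. The sources used here state no annotation release, trimming, length limits or strand setting, so overlapping genes and antisense partners cannot be separated. Summary rows that name no gene were left out: they held between 65.8% and 79.6% of a library's records as not unique and between 11.8% and 14.5% as outside any CDS. Columns were matched to libraries by the sample descriptions.

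The first CDS column was tested in edgeR 4.0.16 (R 4.3.3) with filterByExpr, TMM factors, glmQLFit and glmQLFTest (two-sided), and p-values were adjusted by Benjamini-Hochberg across the 6775 genes. The SE was derived from the F statistic of the log2 change. Leader against CDS counts were tested as an interaction in 1 edgeR model with a term per library, in genes with at least 10 leader counts. Alternatives used DESeq2 1.42.0, limma 3.58.1, other scalings, filters and counting columns, and each library left out. The scripts were tested on simulated data. The text names all 8 members, with symbols from the list that defined them, and the 2 IDs with the highest correlation to their mean among genes with at least 10 CPM. Members and lists were chosen with earlier results of these data known. The labels call the libraries biological replicates without naming animals, and p-values therefore reflect only how these libraries varied.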

Additional observations from a re-analysis of the deposited data

How the results depend on the processing

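Hspa5 kept its call and direction under all 19 alternatives (log2 change 1.39 to 1.86), and Pdia3 under 18 of 19 (-1.38 to -0.87). Hsp90b1 kept its direction (-0.77 to -0.25) and lost its call under 11 of 19, Pdia4 kept its direction (-0.82 to -0.30) and lost its call under 10, and P4hb kept its direction (0.040 to 0.52) and gained a call under 4. The changes of Calr, Canx and Pdia6 never passed the threshold and changed sign: Calr was -0.13 with upper quartile factors, -0.33 with library totals, -0.0083 with limma voom, -0.0048 in exon counts, -0.011 with the replicate block, and -0.13 to 0.13 with each library left out. Canx was -0.033 and -0.23, and Pdia6 -0.017 and -0.22, with those first 2 scalings, and Pdia6 was -0.0096 to 0.26 with each library left out. The leader change of Hspa5 relative to its CDS was -0.072 among genes with at least 50 leader counts and -0.19 to 0.26 with each library left out. The difference in the members' share of CDS counts was -0.036 percentage points, -0.084 to 0.0094 with each library left out, and 0.012 on a base without the 50 most abundant genes. Over all genes the CDS test gave 3097 genes, 721 against a 2-fold null, which asks for more, and 2654 to 3055 with each library left out. The leader test gave 11 genes, 0 with 1 scaling for both regions (528 at an unadjusted p under 0.05), 21 with at least 50 leader counts, 2 at an adjusted p under 0.01, 1 with the replicate block, and 1 to 22 with each library left out, and no member tested was called in any of them (Calr and Pdia4 have too few leader counts for the minimum of 50); the causes were not tested. Replicate numbers were not taken as pairing, since no label says what libraries of the same number share. Across genes, same-numbered libraries deviated together at r of 0.13, 0.07 and 0.23, above differently numbered ones at -0.16 to 0.0075. Whether a number marks a shared effect was not tested. With the replicate block, 3455 genes passed in the CDS, and P4hb passed (edgeR adjusted p = 0.0358). Hsp90b1 and Pdia4 kept their calls with it (edgeR adjusted p = 0.0047 and 0.0151). The difference in the share of Hspa5, with alternatives chosen after seeing the data, was 0.172 percentage points and 0.214 without the 50 most abundant genes. Counts within a group varied more between libraries than counting error gives, with a chi-square per degree of freedom of 1.80 to 4.35 between pairs.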
